A study of Mus musculus with 8 samples.

Results

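The CD300 and PILR paired receptors were followed across 4 groups of sorted mouse lung macrophages. The 8 genes were Cd300a, Cd300e, Cd300lb, Cd300ld, Cd300lf, Cd300lg, Pilra and Pilrb1, of 18782 genes with a value. They were taken by symbol from the probe sets that the platform annotation ties to a single gene. A probe set was to be chosen by its mean signal over the arrays, the highest winning, but each of the 8 genes had 1, so this value decided nothing. The genes were named for their family, and with earlier results of these arrays known, so the tests below describe them against the spread between pools and are no independent support for any pattern.

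All animals were C57BL/6 mice with a loxP-flanked Pparg gene (PPARg fl/fl). Controls carried no recombinase, and knockouts also carried CD11c-Cre, which acts in cells that express CD11c and so is not limited to alveolar macrophages. The 4 groups were controls at day 2 after birth, knockouts at day 2, controls at day 11 and knockouts at day 11. Each had 2 arrays, and each array held RNA from sorted cells pooled from 2 mice. Cells from 2-day-old lungs were CD45+ F4/80+ CD11c high and fell in one of 2 gates, Siglec-F int CD11b int or Siglec-F low CD11b high. Cells from 11-day-old lungs were CD45+, CD11c high, autofluorescent and Siglec-F+, and CD11b was low in the control gate but high in the knockout gate. Deletion and gate cannot be told apart. In such sorted bulk samples, fewer cells of a type and less RNA per cell cannot be told apart either.

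Paired receptors are families of surface proteins that have nearly the same outer part but opposite signals. The inhibitory ones carry ITIM motifs in their tail and recruit phosphatases such as SHP-1, the product of Ptpn6. The activating ones have a short tail and borrow an adapter with an ITAM motif, DAP12 (Tyrobp) or the Fc receptor gamma chain (Fcer1g), which recruits the kinase Syk. CD300 proteins of myeloid cells bind lipids such as phosphatidylserine, phosphatidylethanolamine and ceramide, and so take part in sensing dying cells. PILR proteins bind O-glycosylated proteins, among them CD99, NPDC1 and PIANP.

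Values are RMA signals on the log2 scale, where a difference of 1 is a 2-fold change, and a level is read only within a gene. The median of each array was 5.35, and each of the 8 genes lay above it in every array. Replicate arrays had a Pearson r across genes between 0.994 and 0.998. Pparg itself was 10.89 and 11.01 in day 2 controls, 10.55 and 10.74 in day 2 knockouts, 11.18 and 11.13 in day 11 controls, and 11.32 and 11.36 in day 11 knockouts. Whether its probes lie in the deleted part is not given by the sources here, so it checks nothing. Fabp4, a PPAR target, was between 9.10 and 9.36 in controls and between 5.90 and 6.39 in knockouts. Alveolar macrophage markers Siglecf and Itgax (CD11c) were above 5.35 in every array, but both proteins were used in the sort, so this checks nothing. Siglecf was 9.85 and 9.90 in day 2 controls and 7.13 and 7.46 in day 2 knockouts. At day 11 it was 10.9 and 10.73 in controls and 8.73 and 8.85 in knockouts. Xist, made in female cells, was 3.38 in day 2 control replicate 2 and 3.46 in day 11 knockout replicate 1 and from 9.85 to 10.68 elsewhere, so pools differed in sex. The median of 10 interferon response genes was 9.61 in day 2 knockout replicate 1 and 5.37 in replicate 2.

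The start regions of the receptor genes are shown first, because those of the PILR pair are close copies of each other. RefSeq (GRCm38.p6) gave a window of 250 bases before the start for 7 of the 8 genes, all but Cd300lg. The windows of Pilra and Pilrb1, shifted by 54 bases, were identical at 192 of 196 positions (98%), while no other pair of the 7 windows exceeded 42.5% over an overlap of at least 100 bases. The shared stretch lay at chr5:137836279-137836474 for Pilra and at chr5:137858104-137858299 for Pilrb1, both on the minus strand and upstream of the annotated gene start. Capitals mark the 4 bases that differ.
Pilra: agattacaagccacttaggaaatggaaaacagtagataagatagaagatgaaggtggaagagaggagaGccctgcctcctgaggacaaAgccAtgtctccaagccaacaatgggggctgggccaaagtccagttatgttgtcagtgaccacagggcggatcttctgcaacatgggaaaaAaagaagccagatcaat
Pilrb1: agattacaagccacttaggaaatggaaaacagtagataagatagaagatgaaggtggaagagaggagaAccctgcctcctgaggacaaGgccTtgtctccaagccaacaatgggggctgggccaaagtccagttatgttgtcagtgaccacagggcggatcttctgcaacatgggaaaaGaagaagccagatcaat

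The windows of 3 CD300 genes are shown for their matches to sites of factors that are known to drive macrophage genes. The motifs were PU.1 (GAGGAAG), C/EBP (TTNNGNAA), AP-1 (TGANTCA), the PPAR half-site (AGGTCA), a direct repeat of that half-site with 1 base between the copies, and an interferon response element (a pair of GAAA blocks 2 bases apart). Both strands were searched. Cd300a lies on the plus strand with its window at chr11:114889791-114890040, and Cd300ld (chr11:114989887-114990136) and Cd300lf (chr11:115133993-115134242) lie on the minus strand. Capitals mark the PU.1 and C/EBP matches.
Cd300a: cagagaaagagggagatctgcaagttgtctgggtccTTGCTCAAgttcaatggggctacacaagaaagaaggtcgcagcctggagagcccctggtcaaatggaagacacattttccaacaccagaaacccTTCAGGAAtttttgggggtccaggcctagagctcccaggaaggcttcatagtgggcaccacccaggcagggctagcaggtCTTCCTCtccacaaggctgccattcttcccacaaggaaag
Cd300ld: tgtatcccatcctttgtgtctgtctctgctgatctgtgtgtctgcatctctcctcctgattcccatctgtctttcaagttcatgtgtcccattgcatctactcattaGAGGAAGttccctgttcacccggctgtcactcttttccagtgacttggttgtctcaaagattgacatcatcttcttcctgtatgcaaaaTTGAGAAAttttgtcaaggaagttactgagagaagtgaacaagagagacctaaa
Cd300lf: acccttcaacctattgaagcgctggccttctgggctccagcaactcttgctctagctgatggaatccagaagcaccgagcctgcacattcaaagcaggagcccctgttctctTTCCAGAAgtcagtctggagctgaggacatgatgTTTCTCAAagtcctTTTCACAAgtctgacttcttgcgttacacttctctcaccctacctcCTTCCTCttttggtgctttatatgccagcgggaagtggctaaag

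PU.1 matches stood in the windows of Cd300a, Cd300ld, Cd300lf and Pilra, 4 of 7, where 10.6% of 32851 RefSeq windows held one. The Pilra match began 211 bases before the start, outside the stretch that it shares with Pilrb1. C/EBP matches stood in 5 of 7 windows (Cd300a, Cd300ld, Cd300lf, Pilra and Pilrb1), against 36.8% of all windows. The interferon element stood in Pilra and Pilrb1 (2.98% of all windows), where it overlapped a C/EBP match. The C/EBP and interferon matches of Pilra and Pilrb1 lay in the stretch they share, so these counts hold copied sites. No window of the 7 held the PPAR half-site (14% of all windows), the direct repeat (0.0335%) or AP-1 (6.75%). A match is a string of letters and not a bound site.

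At day 2, 7 of the 8 receptors were higher in knockouts, led by Cd300ld (4.72-fold), Cd300e (3.22-fold) and Cd300lb (2.91-fold). Over all genes 8.86% were called higher and 11.2% lower at that age by limma at an adjusted p under 0.05. At day 11, Cd300a, Cd300lb and Cd300ld were still higher in knockouts and Cd300e, Cd300lg, Pilra and Pilrb1 were lower, where 9.34% of all genes were called higher and 9.29% lower. Cd300lf was not called at either age. The median difference of the 8 was 0.89 at day 2 and -0.10 at day 11, beside -0.03 and 0.00 over all genes. Activating receptors stood on both sides of this split, as the values of each gene show. Of the inhibitory ones, Cd300a was on the higher side and Pilra on the lower. The Pilra difference was 1.17-fold, and its call did not hold when single arrays were left out.

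**Figure D1:**
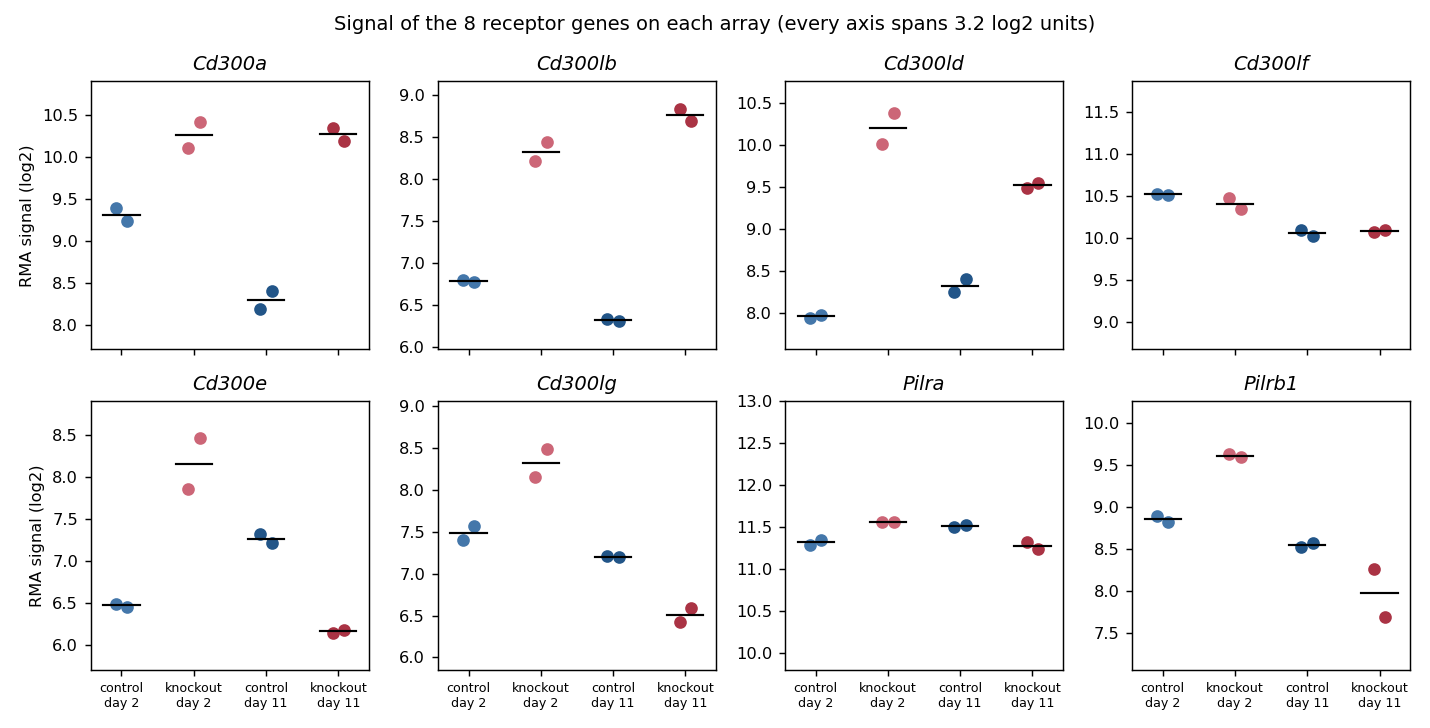
Log2 RMA signal of each receptor gene on each of the 8 arrays, by genotype and age, with short lines for the mean of the 2 arrays of a group. Cd300a, Cd300lb and Cd300ld lay higher in every knockout array at both ages, Cd300e, Cd300lg and Pilrb1 were highest in day 2 knockouts and lowest in day 11 knockouts, and Cd300lf spanned 0.46 log2 units over its group means.

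Cd300a encodes an inhibitory receptor with ITIM motifs that binds phosphatidylserine and phosphatidylethanolamine on dying cells. Its signal was 9.39 and 9.23 in day 2 controls, 10.10 and 10.42 in day 2 knockouts, 8.19 and 8.40 in day 11 controls, and 10.34 and 10.19 in day 11 knockouts. Every knockout array lay above every control array, and the 2 knockout groups overlapped. The knockout difference was 0.95 ± 0.13 (SE, n = 2 arrays per group, limma adjusted p = 0.00134) at day 2 and 1.97 ± 0.13 (limma adjusted p = 4.52e-05) at day 11, which is 1.93-fold and 3.93-fold. In order, day 11 controls were lowest and day 2 controls next, and the knockout groups did not differ beyond their spread. With age the gene fell in controls, 2.03-fold (-1.02 ± 0.13, limma adjusted p = 0.00488), a call lost without day 2 control replicate 1 (adjusted p = 0.0545). In knockouts the difference with age was 0.00 ± 0.13, with a 95% interval from -0.29 to 0.30.

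Cd300lf encodes the other ITIM receptor of the CD300 group, which binds ceramide and serves mouse norovirus as a receptor. Its signal was 10.52 and 10.51 in day 2 controls, 10.47 and 10.34 in day 2 knockouts, 10.10 and 10.02 in day 11 controls, and 10.07 and 10.09 in day 11 knockouts. Ages separated and genotypes lay close, with overlap at day 11. The knockout difference was -0.11 ± 0.07 at day 2 (95% interval -0.27 to 0.05, limma adjusted p = 0.33) and 0.02 ± 0.07 at day 11 (-0.14 to 0.18, limma adjusted p = 0.907). A difference as large as that of Cd300a lies outside both intervals. With age Cd300lf fell 1.37-fold in controls (-0.45 ± 0.07, limma adjusted p = 0.0108) and 1.25-fold in knockouts (-0.33 ± 0.07, limma adjusted p = 0.0174). Leaving out any 1 control array ended the call in controls (adjusted p from 0.0581 to 0.0829), and the knockout call was lost without day 2 knockout replicate 1 (0.093) or either day 11 knockout (0.0742 and 0.0711), and with only the knockout arrays in the fit (0.0688).

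Cd300lb encodes an activating receptor of myeloid cells that signals through DAP12. Its signal was 6.80 and 6.77 in day 2 controls, 8.21 and 8.44 in day 2 knockouts, 6.33 and 6.30 in day 11 controls, and 8.83 and 8.69 in day 11 knockouts. No arrays of different groups overlapped. The knockout difference was 1.54 ± 0.09 at day 2 (2.91-fold, limma adjusted p = 2.48e-05) and 2.44 ± 0.09 at day 11 (5.44-fold, limma adjusted p = 5.37e-06). The order of the groups was day 11 controls, day 2 controls, day 2 knockouts and day 11 knockouts. Each step in it was called. Age moved the gene in opposite directions, -0.47 ± 0.09 in controls (limma adjusted p = 0.0258) and 0.43 ± 0.09 in knockouts (limma adjusted p = 0.0149). The control step was lost without any 1 control array (adjusted p from 0.124 to 0.141) and the knockout step without replicate 1 of either knockout group (0.0689 for day 2 and 0.0791 for day 11) or with only the knockout arrays in the fit (0.0728).

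Cd300ld encodes an activating receptor that pairs with the Fc receptor gamma chain. Its signal was 7.94 and 7.97 in day 2 controls, 10.01 and 10.38 in day 2 knockouts, 8.25 and 8.40 in day 11 controls, and 9.49 and 9.55 in day 11 knockouts. The knockouts lay above the controls at both ages, furthest at day 2. The difference was 2.24 ± 0.12 at day 2 (4.72-fold, limma adjusted p = 1.66e-05) and 1.19 ± 0.12 at day 11 (2.29-fold, limma adjusted p = 0.000329). In knockouts the gene fell 1.6-fold from day 2 to day 11 (-0.68 ± 0.12, limma adjusted p = 0.0079). In controls the difference of 0.37 ± 0.12 was not called (limma adjusted p = 0.121), although it was with the day 2 and day 11 control arrays alone (0.0337) and without either day 2 knockout (0.0298). The close relatives Cd300ld3 and Cd300ld5 had only probe sets that carry both names, and Cd300ld2 and Cd300ld4 had none of their own, so reads of these copies by the Cd300ld probes were not tested.

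Cd300e encodes a receptor of monocytes and related myeloid cells that is regarded as activating. Its signal was 6.48 and 6.45 in day 2 controls, 7.85 and 8.46 in day 2 knockouts, 7.32 and 7.21 in day 11 controls, and 6.15 and 6.17 in day 11 knockouts. The knockouts held both the highest and the lowest arrays. The difference was 1.69 ± 0.17 at day 2 (3.22-fold higher in knockouts, limma adjusted p = 0.000322) and -1.10 ± 0.17 at day 11 (lower in knockouts, limma adjusted p = 0.00275). With age it rose 1.74-fold in controls (0.80 ± 0.17, limma adjusted p = 0.0365), a call lost without any 1 array other than the day 2 knockouts (adjusted p from 0.0542 to 0.189). In knockouts it fell 3.99-fold (-2.00 ± 0.17, limma adjusted p = 0.000341). The day 2 knockout arrays of Cd300e lay 0.61 apart, the widest gap within a group for any of these genes.

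Cd300lg encodes nepmucin, a family member known from the endothelium of venules, where it binds L-selectin. Its signal was 7.40 and 7.56 in day 2 controls, 8.15 and 8.49 in day 2 knockouts, 7.21 and 7.19 in day 11 controls, and 6.42 and 6.59 in day 11 knockouts. As with Cd300e, the knockouts were the highest group at day 2 and the lowest at day 11. The difference was 0.83 ± 0.12 at day 2 (1.78-fold, limma adjusted p = 0.00192) and -0.69 ± 0.12 at day 11 (1.62-fold lower, limma adjusted p = 0.00516). In knockouts Cd300lg fell 3.51-fold with age (-1.81 ± 0.12, limma adjusted p = 0.000116), and in controls the difference of -0.28 ± 0.12 was not called (limma adjusted p = 0.223). The summed linear signal of 14 endothelial markers was 1058 to 1091 in day 2 controls, 1335 to 1378 in day 2 knockouts, 1067 to 1077 in day 11 controls and 1295 to 1306 in day 11 knockouts. Tek and Esam were below the array median in all 4 groups, and Kdr and Ramp2 in all but the day 2 knockouts. The median log2 signal of the 14 was 5.75 and 5.77, 5.85 and 5.91, 5.67 and 5.74, and 5.47 and 5.62 in the same order of groups. With age in knockouts 1 of the 14 rose and 4 fell, beside 8.81% and 6.71% of all genes. For the interaction, the change of the knockout difference from day 2 to day 11, 1 of the 14 was called higher and 3 lower. Over all genes these shares were 1.29% and 1.99%. Among the 3 was Pecam1, which endothelium and myeloid cells both express (-1.82 ± 0.14, limma adjusted p = 0.000841). It was highest in day 2 knockouts, at 7.41 and 7.44. The part of endothelial RNA in the Cd300lg signal was not tested.

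Pilra encodes the inhibitory PILR receptor, with ITIM motifs. Its signal was 11.29 and 11.35 in day 2 controls, 11.56 and 11.56 in day 2 knockouts, 11.50 and 11.52 in day 11 controls, and 11.32 and 11.24 in day 11 knockouts. Day 2 controls and day 11 knockouts overlapped at the low end. The differences were small, 0.24 ± 0.06 at day 2 (1.18-fold, limma adjusted p = 0.0298) and -0.23 ± 0.06 at day 11 (1.17-fold lower, limma adjusted p = 0.037). The day 2 call was lost without any 1 array of the day 2 groups or of the day 11 controls (adjusted p from 0.0513 to 0.147), and the day 11 call without any 1 array of the day 11 groups or of the day 2 controls (0.0571 to 0.181). With only the arrays of the groups compared in the fit, neither was called (0.0701 at day 2 and 0.0746 at day 11). Pilra fell 1.21-fold with age in knockouts (-0.28 ± 0.06, limma adjusted p = 0.0208), a call lost without day 11 knockout replicate 2 (0.114) or either day 2 knockout (0.0817 and 0.0577) and with only the knockout arrays in the fit (0.0766), and in controls the difference was 0.19 ± 0.06 (limma adjusted p = 0.128).

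Pilrb1 encodes the activating PILR receptor, which signals through DAP12. Its signal was 8.89 and 8.83 in day 2 controls, 9.64 and 9.59 in day 2 knockouts, 8.52 and 8.57 in day 11 controls, and 8.26 and 7.68 in day 11 knockouts. The groups did not overlap, and the day 11 knockout arrays stood 0.58 apart. The difference was 0.76 ± 0.16 at day 2 (1.69-fold higher, limma adjusted p = 0.0123) and -0.58 ± 0.16 at day 11 (1.49-fold lower, limma adjusted p = 0.04). The day 2 call was lost without day 2 control replicate 1 (0.0587) or 2 (0.0811). The day 11 call was lost without day 11 knockout replicate 2, where the difference was -0.29 (0.0615), without day 11 control replicate 1 (0.142) or 2 (0.161), without either day 2 control (0.0718), or with only the day 11 arrays in the fit (0.083). Pilrb1 fell 3.12-fold with age in knockouts (-1.64 ± 0.16, limma adjusted p = 0.000703), and in controls the difference was -0.31 ± 0.16 (limma adjusted p = 0.316). Pilrb2, the nearest copy, shared its probe set with Pilrb1 and has no value of its own, so how far the Pilrb1 probes also read Pilrb2 or Pilra was not tested.

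**Figure D2:**
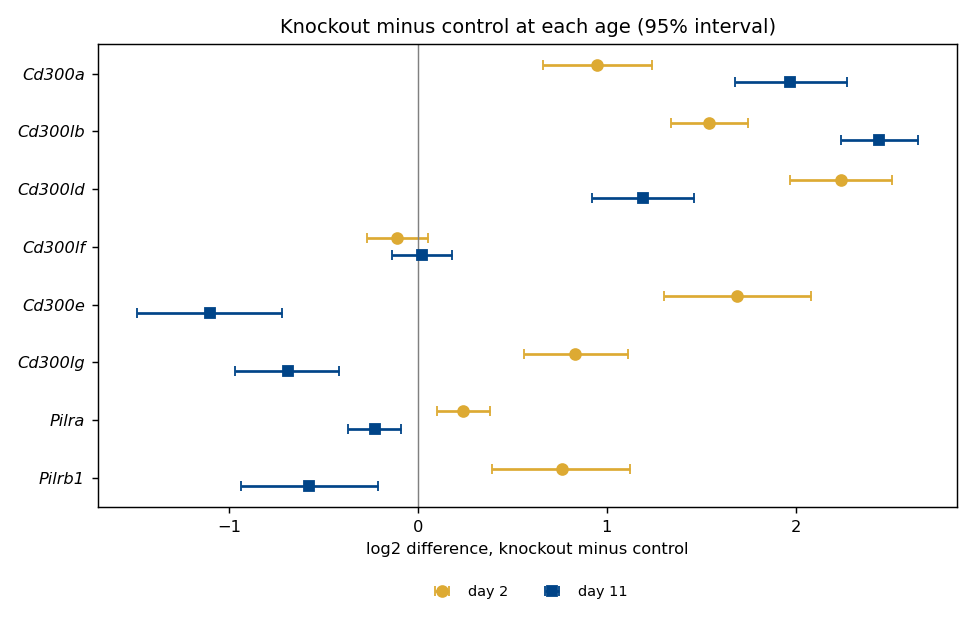
Knockout minus control log2 difference of each receptor at day 2 and day 11, with points for the limma estimate and bars for its 95% interval. Cd300a, Cd300lb and Cd300ld lay right of 0 at both ages, and Cd300e moved from 1.69 at day 2 to -1.10 at day 11.

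The difference between the ages was itself tested, as the interaction of genotype and age. By limma 7 of the 8 genes were called, 2 with a higher knockout difference at day 11 (Cd300a and Cd300lb) and 5 with a lower one, where 1.29% and 1.99% of all genes were called. The largest were Cd300e (-2.79 ± 0.24, limma adjusted p = 0.00127) and Cd300lg (-1.53 ± 0.17, limma adjusted p = 0.0041), and these calls held with any 1 array left out. The calls of Cd300a, Cd300lb, Cd300ld, Pilra and Pilrb1 did not, and leaving out either day 2 control or day 11 control replicate 2 left only Cd300e and Cd300lg. Cd300lf had 0.13 ± 0.10 (limma adjusted p = 0.566). The genes for which the knockout difference changed sign were thus Cd300e and Cd300lg with a stable interaction call, and Pilra and Pilrb1 with one that depended on single arrays.

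With age alone, 1 receptor rose (Cd300e) and 3 fell (Cd300a, Cd300lb and Cd300lf) in controls, beside 2.81% and 2.49% of all genes. Without day 2 control replicate 1 the lowest limma adjusted p of the 8 was 0.0545. In knockouts 1 rose (Cd300lb) and 6 fell (Cd300e, Cd300ld, Cd300lf, Cd300lg, Pilra and Pilrb1), beside 8.81% and 6.71% of all genes, and 4 of the 8 were called without day 2 knockout replicate 1. That array is the one with the high interferon response genes. Its values for Pilra and Pilrb1, the 2 genes with an interferon element in their window, were 11.56 and 9.64, against 11.56 and 9.59 in the other day 2 knockout array. The other receptors lay further apart between these arrays. Cd300a, Cd300e, Cd300lb, Cd300ld and Cd300lg were lower in replicate 1, by 0.32, 0.61, 0.22, 0.37 and 0.34, and Cd300lf was higher by 0.13. An effect of interferon on the receptors was not tested. The comparisons share groups, since each knockout group enters both a genotype and an age comparison.

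**Figure D3:**
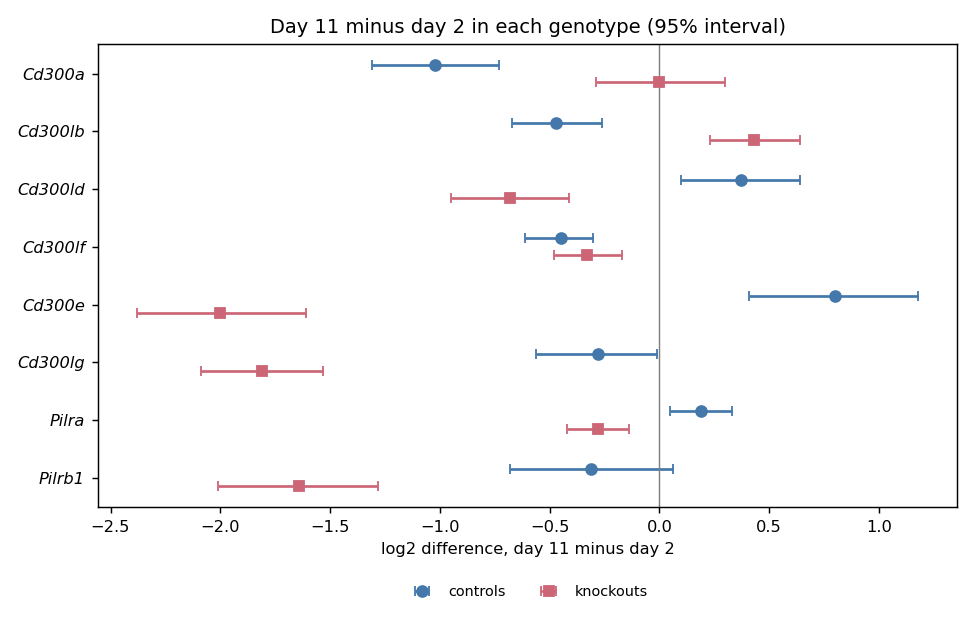
Day 11 minus day 2 log2 difference of each receptor in controls and in knockouts, with points for the limma estimate and bars for its 95% interval. In knockouts Cd300e, Cd300lg and Pilrb1 lay between -2.00 and -1.64, and in controls no receptor fell further than Cd300a, at -1.02.

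Most CD300 genes lie together on chromosome 11, and the differences were set against their order there. Along the cluster, the order in RefSeq was Cd300a, Cd300lb, Cd300c, Cd300ld, Cd300c2, Cd300ld4, Cd300ld2, Cd300ld5, Cd300ld3, Cd300e, Rab37 and Cd300lf. The family genes that were not among the 8 but had a value are given here for comparison. Cd300c, another activating CD300 gene, was 6.36 and 6.31 in day 2 controls, 5.95 and 6.25 in day 2 knockouts, 6.36 and 6.24 in day 11 controls, and 5.73 and 5.80 in day 11 knockouts. Its difference was -0.23 ± 0.10 at day 2 (limma adjusted p = 0.164) and -0.54 ± 0.10 at day 11 (1.45-fold lower, limma adjusted p = 0.00802), although it lies between Cd300lb and Cd300ld. Cd300c2 had 0.44 ± 0.14 at day 2 (limma adjusted p = 0.0589) and 0.00 ± 0.14 at day 11 (limma adjusted p = 0.998).

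Rab37, inside the cluster between Cd300e and Cd300lf and no family member, had 0.09 at day 2 (limma adjusted p = 0.573) and -0.16 at day 11 (limma adjusted p = 0.286). Of the 7 genes of other families in or flanking the cluster, 1 was called at day 2 (Slc9a3r1, 0.32, limma adjusted p = 0.047) and 2 at day 11 (Gprc5c, 0.65, limma adjusted p = 0.0418, and Tmem104, 0.45, limma adjusted p = 0.00903). Over all genes 8.86% were called higher and 11.2% lower at day 2, and 9.34% and 9.29% at day 11, and with 7 genes these counts lie near that background. The differences of the 7 ranged from -0.19 to 0.32 at day 2 and from -0.16 to 0.65 at day 11. Cd300lg lies elsewhere, and its 6 flanking genes had differences from -0.08 to 0.21 and limma adjusted p of at least 0.164. Of 5 measured genes beside Pilra and Pilrb1 on chromosome 5, 1 was called, Mepce at day 2 (-0.34, limma adjusted p = 0.0358). The genotype differences of the receptors were not shared by all genes of their stretch of chromosome, and a cause that acts on a whole stretch was not tested.

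**Figure D4:**
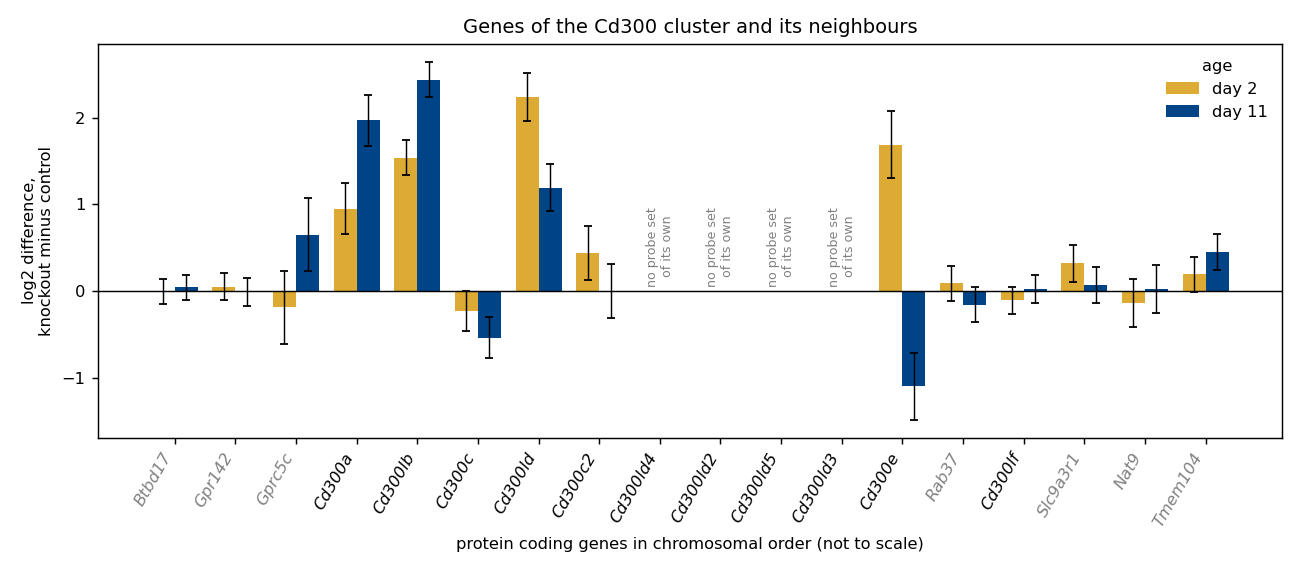
Knockout minus control log2 difference at day 2 and day 11 for the protein coding genes of the Cd300 cluster on chromosome 11 in RefSeq order, family genes in black and others in grey, with bars from 0 and lines for the 95% interval. Tall bars stand at Cd300a, Cd300lb, Cd300ld and Cd300e, with Cd300c below 0 among them and Rab37 near 0 beside Cd300e.

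The signalling partners of the receptors were read from lists of other genes. The adapters themselves hardly differed, and were looked up for their role. Tyrobp, the DAP12 adapter of Cd300lb and Pilrb1, had 0.06 ± 0.06 at day 2 (95% interval -0.08 to 0.20, limma adjusted p = 0.585) and 0.02 ± 0.06 at day 11 (-0.12 to 0.16, limma adjusted p = 0.895). Fcer1g, the gamma chain that pairs with Cd300ld, had 0.07 ± 0.06 (-0.06 to 0.21, limma adjusted p = 0.444) and 0.00 ± 0.06 (-0.13 to 0.13, limma adjusted p = 1). Syk had 0.04 ± 0.07 (limma adjusted p = 0.735) and -0.23 ± 0.07 (limma adjusted p = 0.062). The receptors thus differed by up to 5.44-fold while the intervals of both adapters stayed within 0.21 log2 units of 0.

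Among 21 measured genes of ITAM adapters and activating kinases, 8 rose in knockouts at day 2, where 8.86% of all genes were called higher and 11.2% lower. At day 11, 6 rose and 1 fell, beside 9.34% and 9.29% of all genes. The medians of the 21 were 0.07 and 0.06, beside -0.03 and 0.00 over all genes. Lat2, a scaffold below ITAM receptors, was 6.69 and 6.22 in day 2 controls, 9.92 and 9.70 in day 2 knockouts, 6.33 and 6.62 in day 11 controls, and 8.98 and 9.20 in day 11 knockouts. The knockouts lay above the controls, 10.2-fold at day 2 (3.35 ± 0.17, limma adjusted p = 1.59e-05) and 6.12-fold at day 11 (2.61 ± 0.17, limma adjusted p = 5.10e-05). Src, of the kinase family that phosphorylates ITAM motifs, rose 6.52-fold and 3.08-fold. Blnk, an adapter downstream of Syk, rose by log2 differences of 1.91 ± 0.31 (limma adjusted p = 0.00341) and 2.14 ± 0.31 (limma adjusted p = 0.00211), with controls from 4.50 to 4.98, below the array median, so that a fold against them is poorly measured. At day 2 Malt1 also rose (1.68-fold, limma adjusted p = 0.00545), and at day 11 Pik3cd (1.63-fold, limma adjusted p = 0.000642).

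On the inhibitory side, 2 of 12 phosphatases and docking proteins rose and 2 fell at day 2, and 3 rose and 2 fell at day 11, with medians of 0.07 and 0.01. Over all genes 8.86% were called higher and 11.2% lower at day 2, and 9.34% and 9.29% at day 11. The counts stood above these shares, but with only 12 genes this is not read as a result. Ptpn6, the phosphatase of ITIM receptors looked up for its role, had -0.01 ± 0.09 at day 2 (limma adjusted p = 0.959) and -0.06 ± 0.09 at day 11 (limma adjusted p = 0.721). Dok2, an adapter that damps kinase signals, rose by 0.71 ± 0.10 and 1.13 ± 0.10 (limma adjusted p = 0.00147 and 0.000163). Pag1, which anchors the kinase Csk at the membrane, had -0.98 ± 0.08 and -0.81 ± 0.08 (limma adjusted p = 0.000124 and 0.000304). Inpp5d, the lipid phosphatase SHIP1, rose 1.39-fold at day 2 (limma adjusted p = 0.000943), where Dok3 fell (-0.26 ± 0.07, limma adjusted p = 0.0473). At day 11 Csk fell 1.6-fold (limma adjusted p = 0.000405) and Inppl1 rose 1.38-fold (limma adjusted p = 0.017).

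Of the PILR ligands and CD99 relatives, 4 of 5 were measured, and 1 rose at day 2 and 2 at day 11. Over all genes 8.86% were called higher at day 2 and 9.34% at day 11. Pianp, a glycoprotein ligand of Pilra, was 4.89 and 4.90 in day 2 controls, 4.94 and 5.02 in day 2 knockouts, 4.87 and 4.95 in day 11 controls, and 6.58 and 6.17 in day 11 knockouts. The day 11 knockouts stood apart. They were also the group with the lowest mean of Pilra and Pilrb1, and of Cd300e and Cd300lg. Their Pilra arrays overlapped those of day 2 controls, and a link of Pianp to the receptors was not tested. The Pianp difference was 1.46 ± 0.12 at day 11 (limma adjusted p = 0.000148), and the other 3 groups lay below the array median of 5.35. Cd99l2, a relative of CD99, rose 1.44-fold at day 2 (0.52 ± 0.10, limma adjusted p = 0.00791) and 1.99-fold at day 11 (0.99 ± 0.10, limma adjusted p = 0.000359). Cd99 had no probe set of its own.

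A list of other paired and ITIM receptors of myeloid cells, which also holds lectins such as Mgl2, differed with genotype too. Of 41 measured, 21 rose and 4 fell at day 2, where 8.86% of all genes were called higher and 11.2% lower. At day 11, 19 rose and 10 fell, beside 9.34% and 9.29% of all genes. The medians of the 41 were 0.32 and 0.27. Without day 2 knockout replicate 1 the day 2 counts were 20 and 3. Mgl2, a galactose-binding lectin of macrophages and dendritic cells, rose at day 2 by a log2 difference of 3.42 ± 0.30 (limma adjusted p = 0.000171), with day 2 controls at 5.08 and 5.04, below the array median. Clec4a1, a lectin of the DCIR group, rose 6.6-fold (2.72 ± 0.16, limma adjusted p = 3.03e-05), and Fcgr2b and Clec4d 3.69-fold and 3.2-fold. At day 11 the largest differences were those of Treml4 (5.16-fold lower, limma adjusted p = 2.63e-05), Clec4b1 (4.23-fold lower, limma adjusted p = 8.56e-05), the ITIM receptor Cd101 (4.21-fold lower, limma adjusted p = 4.01e-05) and Lilra6 (3.26-fold higher, limma adjusted p = 5.98e-05).

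A change between the ages was also called in 12 of these 41 genes. Of them, 3 had a higher and 9 a lower knockout difference at day 11, beside 1.29% and 1.99% of all genes. Clec4a1 was 7.89 and 7.75 in day 2 controls, 10.81 and 10.27 in day 2 knockouts, 6.91 and 6.81 in day 11 controls, and 6.12 and 6.31 in day 11 knockouts. Like Cd300e and Cd300lg, it was highest in day 2 knockouts and lowest in day 11 knockouts. Its interaction was -3.37 ± 0.23 (limma adjusted p = 0.000536), and those of Mgl2, Treml4 and Pecam1 were -3.02, -2.41 and -1.82. Treml4 is also among the monocyte markers used here and Pecam1 among the endothelial ones.

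Over the 8 arrays, some receptors ran in parallel. Cd300a and Cd300lb correlated with Pearson r = 0.94, Cd300lb and Cd300ld with 0.86, and Cd300a and Cd300ld with 0.79. Cd300lg and Pilrb1 correlated with 0.94, Cd300e and Pilra with 0.92, Cd300e and Cd300lg with 0.85, Cd300e and Pilrb1 with 0.79, Pilra and Pilrb1 with 0.71, and Cd300lg and Pilra with 0.70. Between these 3 and those 4 genes, r ran from -0.22 (Cd300a and Pilra) to 0.48 (Cd300e and Cd300ld), and Cd300lf had 0.65 with Cd300lg and 0.67 with Pilrb1. These values describe 8 points in 4 groups that share the genotype and age differences above.

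Among 1155 genes with an SD of at least 0.5 over the arrays, those most like Cd300a were Mtus1 (r = 0.996), Wfdc17 (0.990) and Ecm1 (0.987). Cd300lb was closest to Plxnb2 (0.993), Elovl7 (0.991) and Fkbp11 (0.989). The nearest to Cd300ld were Cyp27a1 (0.989), Csrnp1 (0.988) and Edil3 (0.983). Cd300e had weaker matches, Csf3r (0.912), Clcf1 (0.911) and Ocstamp (0.907), and Csf3r is the receptor of G-CSF and a neutrophil marker. Cd300lg was closest to Krt80 (0.982), Trp53i11 (0.967) and Adamdec1 (0.966), and Pilrb1 to Sorl1 (0.949), Pgf (0.947) and Cd300lg itself (0.939). Cd300lf and Pilra spanned less than 1 log2 unit over their group means and were not matched.

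Markers of other myeloid cells moved with the same groups. Of 13 measured monocyte markers, 11 rose in knockouts at day 2, beside 8.86% of all genes. From day 2 to day 11 in knockouts 11 fell, beside 6.71% of all genes. The summed linear signal of the 13 was 6592 to 6710 in day 2 controls, 16758 to 18685 in day 2 knockouts, 7077 to 7181 in day 11 controls and 10277 to 10639 in day 11 knockouts. Ifitm6 and Plac8 were below the array median in every group but the day 2 knockouts, and F13a1 and Vcan in both day 11 groups. For 15 dendritic cell markers the sum was 1897 to 1968, 9360 to 9706, 3263 to 3981 and 2735 to 4206 in the same order, with Zbtb46, Xcr1, Dpp4 and Itgae below the array median in every group. For 15 neutrophil markers it was 949 to 957, 3390 to 3465, 1002 to 1112 and 2864 to 3037, with Mpo, Elane, Camp, Ltf and Prtn3 below the median in every group. In day 2 knockouts 10 neutrophil markers were called higher and 1 lower, and 10 dendritic cell markers higher and 0 lower. Over all genes these shares were 8.86% and 11.2%. At day 11 the counts were 3 and 2 for neutrophil and 2 and 2 for dendritic cell markers, beside 9.34% and 9.29%. Their median differences at day 11 were 0.07 and 0.01, so the higher neutrophil sum was not a rise of the whole list. For 14 alveolar macrophage markers the sum was 27871 to 28199, 17958 to 19478, 38006 to 38179 and 26070 to 27207 in the same order, with none below the median. In knockouts 2 of the 14 rose and 9 fell at day 2, beside 8.86% and 11.2% of all genes. At day 11, 2 rose and 8 fell, beside 9.34% and 9.29%. Day 2 knockouts were thus highest in monocyte, dendritic cell and neutrophil sums, and in the endothelial sum given above. They were also highest in Cd300e, Cd300ld, Cd300lg, Pilra and Pilrb1. In day 11 knockouts the monocyte and neutrophil sums and Cd300ld were above day 11 controls, while the other 4 of these receptors were below. The monocyte sum includes Itgam, the gene of CD11b, and the day 11 gates differed in CD11b. Deletion and gate cannot be told apart here either, and the part of the sort in the higher monocyte sum was not tested. Itgam was 6.22 and 6.32 in day 11 controls and 10.86 and 10.66 in day 11 knockouts. CD11b was also used in the day 2 gates. The part of other myeloid cells in the receptor signals was not tested.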

How the data were processed

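The authors deposited 1 value per probe set and array on the log2 scale, made with RMA and R 2.15.2 as named in the submitters' processing notes. RMA gives the arrays a common distribution, so a shift of all genes cannot be seen. With 2 arrays a group, their number limits the precision. Replicates are labelled biological, and p-values measure the spread between pools.

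Of 28874 probe sets, 21159 carried a single symbol in the platform annotation, which gave 18782 genes, by the probe set with the highest mean where there were several. Linear models of the log2 values used limma 3.58.1 (R 4.3.3) (1 mean per group over 8 arrays, 4 residual and 3.77 prior degrees of freedom, Benjamini-Hochberg over all genes, call at an adjusted p under 0.05), checked on simulated data. Errors are SE of the log2 difference.

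The receptors and lists were chosen with earlier results of these data known. All 8 receptors are given on every array. Of the lists, at most 4 called genes with the largest differences per list and comparison are named, and Tyrobp, Fcer1g, Syk, Ptpn6, Cd300c2 and the interferon list were added for their role. Likeness takes the 3 genes of highest r for receptors whose group means span at least 1. Motifs were searched in RefSeq windows of GRCm38.p6. Figures were drawn with matplotlib 3.10.9. Alternatives were another prior, fewer arrays, a filter on dim genes, averaged probe sets, rescaled arrays, array weights, a replicate block and each array left out.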

Additional observations from a re-analysis of the deposited data

Results flagged for a closer look

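For 7 receptors the knockout difference changed between day 2 and day 11 by limma's interaction test (8 receptors read from one fit over 18782 genes, n = 2 arrays per group), where 1.29% of all genes were called higher and 1.99% lower. With 1 array left out 2 to 6 of the 8 were called. Cd300e and Cd300lg kept their calls throughout, and the other 5 each lost theirs without some single array. It was larger at day 11 for Cd300a (1.03 ± 0.18, adjusted p = 0.0249) and Cd300lb (0.90 ± 0.12, adjusted p = 0.0104). It was smaller but of the same sign for Cd300ld (-1.05 ± 0.17, adjusted p = 0.0175). It turned from higher to lower for Cd300e (-2.79 ± 0.24, adjusted p = 0.00127), Cd300lg (-1.53 ± 0.17, adjusted p = 0.0041), Pilra (-0.47 ± 0.09, adjusted p = 0.0323) and Pilrb1 (-1.33 ± 0.22, adjusted p = 0.0231).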

How the results depend on the processing

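The alternatives gave 592 further values for single receptors. In these, 0 called differences turned direction, 509 stayed on their side of the threshold, 76 lost a call and 7 gained one. Uncalled differences near 0 changed sign, that of Cd300lf at day 11 to -0.02 without day 11 control replicate 2 and that of Cd300a with age in knockouts between -0.16 and 0.16. The genotype calls of Cd300a, Cd300e, Cd300lb, Cd300ld and Cd300lg held at both ages under all 15 alternatives, and 5 to 7 receptors were called at each age. With age in knockouts 4 receptors were called with only the arrays of the groups compared, and 4 to 7 with 1 array left out. With age in controls 0 to 5 were called with 1 array left out and 6 with only the arrays compared. For the interaction 2 to 6 were called with 1 array left out, and it has no fit with fewer groups. The count of all genes called ran from 233 to 1581 for age in controls (996 as reported), from 197 to 942 for the interaction (615), from 1466 to 2988 for age in knockouts (2915), from 2059 to 3760 for genotype at day 11 (3500) and from 2223 to 3802 at day 2 (3774). For the list of adapters and kinases at day 11 it ran from 5 to 12.

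The labels do not say that replicate numbers pair the arrays, and the deviations of same-numbered arrays correlated between -0.08 and 0.25, not above 0.1 for every pair, so the arrays were treated as unpaired. With the replicate block 7 receptors were called at day 2, 6 at day 11, 4 and 7 with age in controls and knockouts, and 6 for the interaction; the calls lost were those of Pilra (adjusted p = 0.057 at day 11 and 0.0528 for the interaction). The planned probe set of lowest mean could not give a value, because each receptor had 1 probe set. The lists without day 2 knockout replicate 1 were added after seeing the data. Where an array was left out, the lone array of its group was assumed to vary like the other groups.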
